A study of Chlamydomonas reinhardtii with 4 samples.

Results

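The genes described here are 10 genes of hydrogen production and fermentation in the unicellular green alga Chlamydomonas reinhardtii. They are HYDA1 and HYDA2 (hydrogenases), HCP3 (a hybrid cluster protein), PFL1, ADH1 and PDC3 (the pyruvate and ethanol branch), and PAT1, ACK2, PAT2 and ACK1 (the acetate branch). They were picked by their symbols in the deposited tables. Each of the 10 symbols was present once among the 17741 genes of all 4 tables. Their RNA was measured by RNA sequencing in cells exposed to silver nanoparticles (AgNPs) and in control cells, and is set out here as transcript levels of genes known from cells that lack oxygen.

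Wild-type cells of strain FACHB-1121 were used throughout. The 4 groups were cells exposed to 0.5 mg/L AgNPs for 12 h, control cells at 12 h, cells exposed to 0.5 mg/L AgNPs for 2 h, and control cells at 2 h. All were grown in TAP, a medium that contains acetate, at 25°C with shaking in the light. Each group holds 1 library, so no difference could be set against an error between replicates, no test was run and no p-value is given. All differences below compare single libraries by size. In a bulk culture, a change in every cell and a change in the share of cells that hold a transcript cannot be told apart. The labels give no oxygen level for the cultures, and whether oxygen differed between them was not tested.

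Chlamydomonas is known for a fermentation that resembles those of bacteria. When oxygen runs out, electrons carried by ferredoxin are passed to protons by [FeFe]-hydrogenases in the chloroplast, which releases hydrogen, and pyruvate is split into formate, acetate, ethanol and carbon dioxide. The hydrogenases are damaged by oxygen, and their genes and several fermentation genes are known for high transcript levels in cells without oxygen. Part of this answer to oxygen lack runs through CRR1, the regulator that also serves the answer to copper deficiency, so some genes are known for high levels in both states. No sequence of these genes was used here.

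The values are FPKM, which scales the fragments of a gene by the length of its transcript and the size of the library, as deposited. The FPKM of all genes summed to 1663726 in exposed and 1143199 in control cells at 12 h, and to 1252796 in exposed and 492502 in control cells at 2 h, and how the libraries were scaled to each other is not given in the sources used here. Absolute read depth is unknown. The fineness of the spacing of values under 0.2 FPKM was taken from a minority of genes, with the 2 h control set to 1. It was 0.363 for exposed and 0.566 for control cells at 12 h, and 0.566 for exposed cells at 2 h. This spacing depends on the scaling between libraries as well as on read depth, so it does not give relative depth. On the deposited scale low values were least finely resolved in the 12 h AgNP library. Ratios are log2 ratios of FPKM + 1, which understate differences of genes with low values. The background was the 3271 genes whose FPKM averaged 5 or more across the libraries (here called tested genes). A gene can pass this filter through the libraries where it is high alone, and its count as high there is then not independent of the filter. Their median log2 ratio was itself off 0, at 0.44 for AgNPs over control at 12 h, 0.48 at 2 h, 0.20 for 12 h over 2 h with AgNPs and 0.26 in the controls. A ratio is therefore given with its place among the tested genes.

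Of the 10 genes, 5 reached the mean of 5 FPKM: HYDA1, HCP3, PFL1, ADH1 and PDC3. HCP3 did so only through its 12 h values. The other 5, HYDA2, PAT1, ACK2, PAT2 and ACK1, lay below it and are given by their values. By mean FPKM over the 4 libraries, PFL1 stood highest at 40.8, above 95.6% of all genes in the table, followed by PDC3 at 22.2, ADH1 at 18.1 and HYDA1 at 15.7. HCP3 had a mean of 5.63, PAT2 3.52, PAT1 3.45 and ACK2 3.41. ACK1 and HYDA2 stood lowest, at 0.658 and 0.654. Spread between replicates is lacking, so neighbours in this order cannot be said to differ. The order was not the same in each library: ADH1 was second in the 2 h control and came behind PFL1, PDC3 and HYDA1 in the other 3 libraries.

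**Figure D1:**
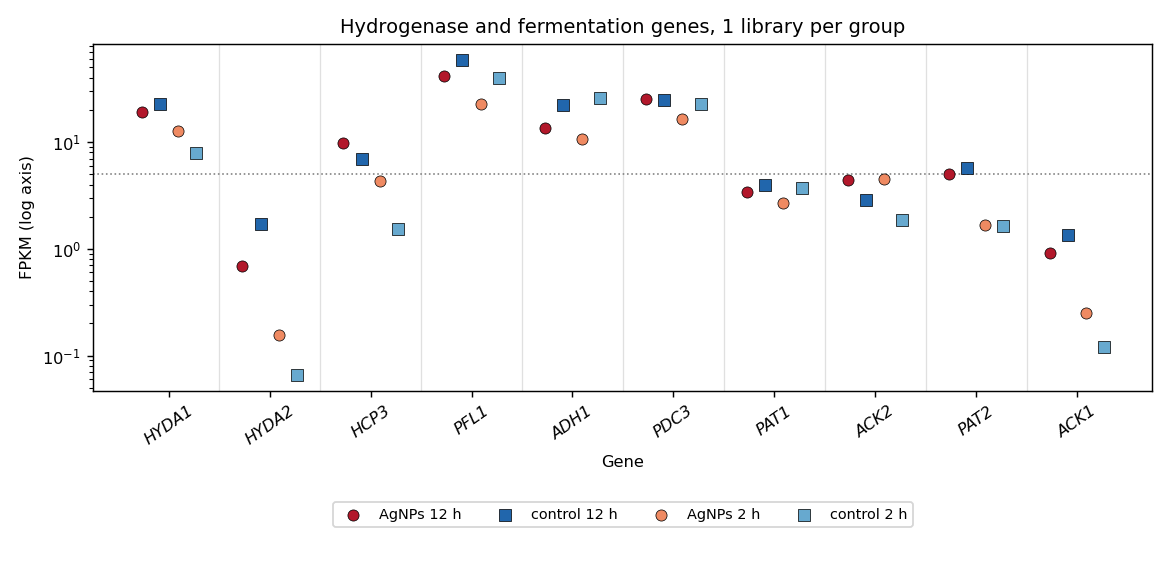
FPKM (log axis) of the 10 genes in the 4 libraries, with 1 point per library, circles for AgNPs and squares for controls. The dotted line marks 5 FPKM, the minimum that the mean of a tested gene had to reach. HYDA2 and ACK1 span the widest range, with 1.71 and 1.36 FPKM in controls at 12 h and 0.0661 and 0.120 FPKM in controls at 2 h.

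Both hydrogenase genes stood higher at 12 h than at 2 h in either condition, also with libraries scaled to equal FPKM sums. On the deposited scale the AgNP library lay below its control at 12 h and above it at 2 h in both genes. With equal sums the AgNP library lay below its control at both times for HYDA1. For HYDA2 it lay below at 12 h and was about level at 2 h, with a log2 ratio of -0.01. HYDA1 (Cre03.g199800, chromosome 3, 8216108 to 8220752), the gene of the main hydrogenase, stood at 19.2 FPKM in exposed and 22.7 FPKM in control cells at 12 h, and at 12.8 FPKM in exposed and 7.94 FPKM in control cells at 2 h. The controls were thus the highest and the lowest of the 4 libraries on the deposited scale, with both AgNP libraries between them. Its log2 ratio of 12 h over 2 h was 0.55 with AgNPs, above 67.1% of tested genes, and 1.41 in the controls, above 89.3%. With equal sums these were 0.16 and 0.29, where the median tested gene was at -0.17 with AgNPs and -0.86 in the controls. For AgNPs over control the log2 ratio was -0.23 at 12 h, above 15.7% of tested genes, and 0.63 at 2 h, above 59.4%. The 2 h value was -0.61 with equal sums, where the median tested gene was at -0.76, so its sign rests on the deposited scaling. The AgNP ratio at 12 h minus that at 2 h was -0.86 for HYDA1, with 4.98% of tested genes below it, and -0.12 with equal sums, where the median tested gene was at 0.70.

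HYDA2 (Cre09.g396600, chromosome 9, 1740957 to 1745328), the gene of a second hydrogenase, had 0.686 FPKM in exposed and 1.71 FPKM in control cells at 12 h, and 0.156 FPKM in exposed and 0.0661 FPKM in control cells at 2 h. On the deposited scale the order of the libraries matched that of HYDA1 at far lower levels. On the log2(FPKM + 1) scale the ratio of 12 h over 2 h was 0.54 with AgNPs and 1.34 in the controls, and that of AgNPs over control was -0.68 at 12 h and 0.12 at 2 h. Within a library, where scaling plays no part, HYDA1 stood 28.0 times as high as HYDA2 in exposed and 13.3 times in control cells at 12 h, and 82.0 times in exposed and 120.2 times in control cells at 2 h. The 2 genes encode related proteins, and reads that fit both cannot be separated here.

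HCP3 (Cre09.g393506, chromosome 9, 4083849 to 4088064) encodes a hybrid cluster protein, a metalloprotein of the kind that other organisms use in nitrogen oxide metabolism. It stood at 9.82 FPKM in exposed and 6.89 FPKM in control cells at 12 h, and at 4.30 FPKM in exposed and 1.54 FPKM in control cells at 2 h. The AgNP library lay above its control at both times, and both 12 h libraries lay above both 2 h libraries. The log2 ratio of AgNPs over control was 0.46 at 12 h, close to the median tested gene at 51.1% of genes below it, and 1.06 at 2 h, above 80.5%. The time ratio was 1.03 with AgNPs and 1.64 in the controls, above 83.6% and 93.4% of tested genes. HCP3 entered the tested genes only through its 12 h values, so these places are not independent of the filter. Under equal FPKM sums the AgNP ratio was -0.03 at 12 h and 0.11 at 2 h, while the time ratios stayed above 0 at 0.64 with AgNPs and 0.78 in the controls.

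ADH1 and PFL1 stood lower with AgNPs at both times, on the deposited scale, with centred ratios and with equal FPKM sums. ADH1 (Cre17.g746997, chromosome 17, 7068687 to 7076475) encodes the bifunctional dehydrogenase that turns acetyl-CoA into ethanol. It had 13.5 FPKM with AgNPs against 22.2 in the control at 12 h, and 10.6 with AgNPs against 26.0 in the control at 2 h. Both AgNP libraries lay below both controls. The log2 ratio was -0.68 at 12 h, with 3.24% of tested genes below it, and -1.22 at 2 h, with 0.764% below it. Across the alternatives of scaling, pseudocount and span correction it ran from -1.25 to -0.53 at 12 h and from -2.52 to -0.99 at 2 h. On the deposited scale the ratio of 12 h over 2 h was 0.33 with AgNPs and -0.22 in the controls, and with equal sums it was -0.05 with AgNPs and -1.40 in the controls.

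PFL1 (Cre01.g044800, chromosome 1) encodes pyruvate formate-lyase, which splits pyruvate into formate and acetyl-CoA. It stood at 41.4 FPKM with AgNPs against 59.0 in the control at 12 h, and at 22.9 with AgNPs against 40.1 in the control at 2 h. The AgNP library was lower at each time, and the 12 h library was higher in each condition, so that the 12 h AgNP and 2 h control values lay close together. The log2 ratio of AgNPs over control was -0.50 at 12 h and -0.78 at 2 h, with 7.03% and 3.42% of tested genes below it. The ratio of 12 h over 2 h was 0.83 with AgNPs and 0.55 in the controls, where it was -0.65 with equal sums. The tables give PFL1 and the next gene, Cre01.g044850, the same locus of 6257324 to 6301273, so reads in that stretch were assigned between them by the authors' software. Cre01.g044850 was listed between 0.426 and 0.774 FPKM.

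PDC3 (Cre03.g165700, chromosome 3, 3240045 to 3248371) encodes pyruvate decarboxylase, which forms acetaldehyde, the step before ethanol on the direct route from pyruvate. It had 25.1 FPKM with AgNPs and 24.9 in the control at 12 h, and 16.3 with AgNPs and 22.5 in the control at 2 h. The 2 h AgNP library was low and the other 3 lay close together on the deposited scale. With equal sums the ratio of AgNPs over control was -0.50 at 12 h and -1.74 at 2 h, and that of 12 h over 2 h in the controls was -1.03. Its log2 ratio of AgNPs over control was 0.01 at 12 h, with 26.3% of tested genes below it, and -0.44 at 2 h, with 8.47% below it.

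**Figure D2:**
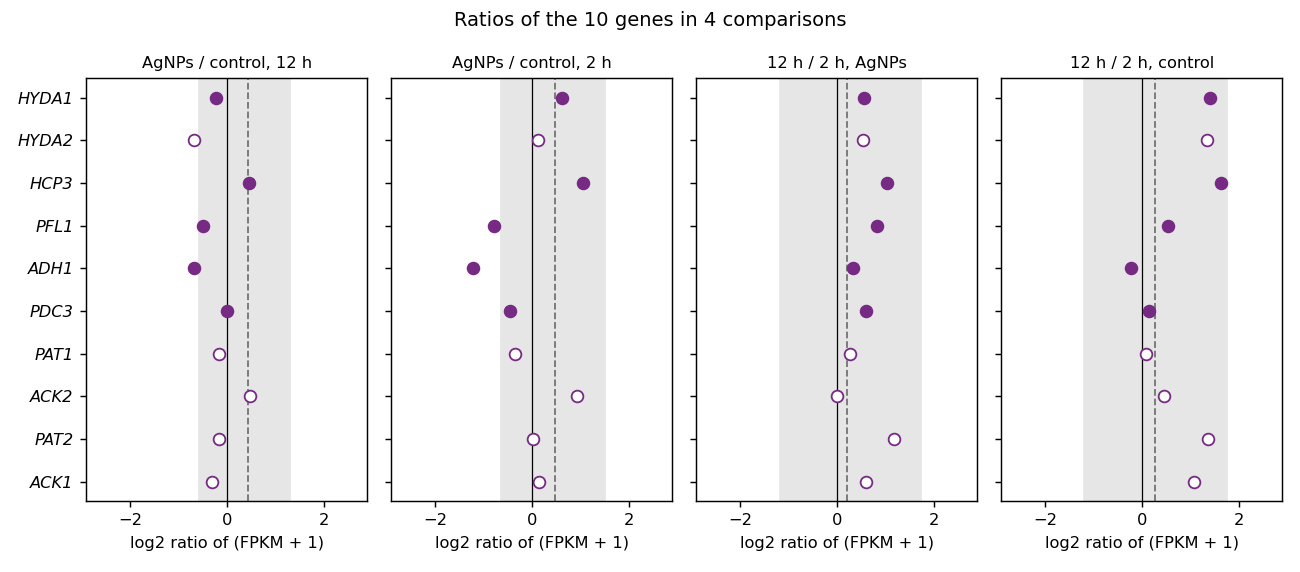
Log2 ratios of FPKM + 1 for the 10 genes in the 4 comparisons, with filled points for tested genes and open points for the others. The grey band holds the central 90% of the 3271 tested genes and the dashed line is their median. ADH1 and PFL1 lie left of the band for AgNPs at 2 h, ADH1 and HYDA2 at 12 h, and no member leaves the band in the time comparisons.

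Counted at 2-fold, 0 of the 5 tested members were higher and 0 lower with AgNPs at 12 h, where 16.7% of all tested genes were higher and 0.459% lower. At 2 h HCP3 was higher and ADH1 lower, against 22.0% of tested genes higher and 1.62% lower. With ratios centred on the median tested gene the 2 h count was 0 higher and 2 lower (ADH1 and PFL1), against 5.47% and 6.97% of tested genes, and the 12 h count 0 higher and 1 lower (ADH1), against 3.03% and 5.35%. For 12 h over 2 h with AgNPs, HCP3 was at least 2-fold higher and 0 members lower, where the background was 17.1% and 8.07%. In the controls HYDA1 and HCP3 were higher and 0 members lower, against 20.2% and 7.80%. With centred ratios the count was 0 with AgNPs (11.6% higher and 12.4% lower among tested genes) and the same pair, HYDA1 and HCP3, in the controls (13.3% and 12.4%). HCP3 passed the filter only through its 12 h values, so its counts as higher at 12 h are not independent of the filter. The AgNP ratio at 12 h minus that at 2 h reached 2-fold in 0 of the 5 in either direction, with 1.77% of tested genes upward and 2.93% downward. Over all 10 members, 8 lay below the median tested gene for AgNPs at 12 h and 7 at 2 h. The median ratio of the 10 was -0.20 at 12 h and 0.07 at 2 h, against 0.44 and 0.48 for tested genes. These figures include the 5 members that were not tested. The added 1 draws their ratios toward 0, which lies below both medians of tested genes. At 2 h HYDA2 had 0.156 FPKM with AgNPs and 0.0661 in the control, yet its ratio of 0.12 counted as below the median. The counts over all 10 are therefore not read as a result.

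**Figure D3:**
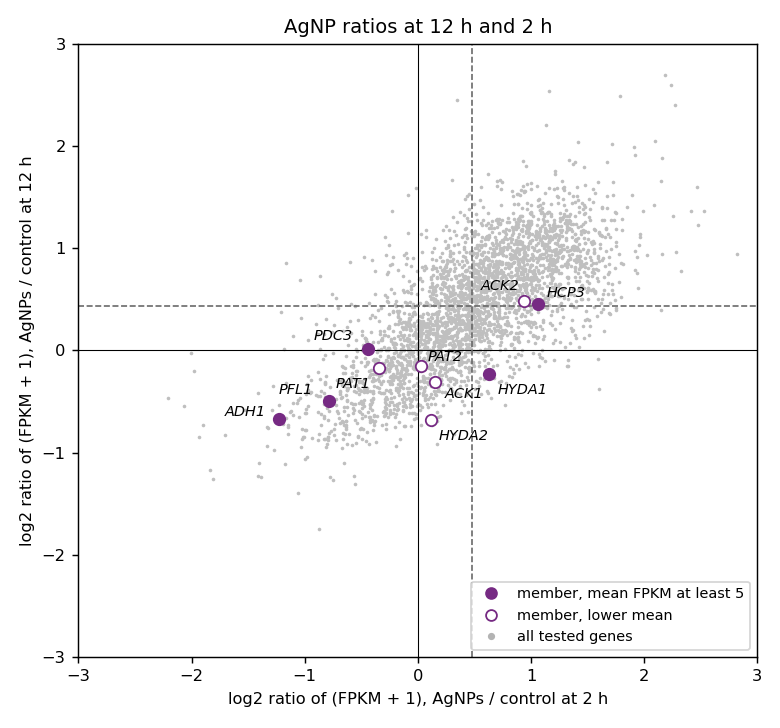
Log2 ratio of FPKM + 1 for AgNPs over control at 12 h (vertical) against that at 2 h (horizontal) for the tested genes (grey) and the 10 members (purple, open where the mean was below 5 FPKM). Dashed lines mark the median tested gene, and 17 tested genes lie outside the axes at 3. On the deposited scale shown, ADH1 and PFL1 stand low on both axes, HCP3 and ACK2 above 0 on both, and HYDA1, HYDA2, PAT2 and ACK1 are above 0 at 2 h and below 0 at 12 h.

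The acetate branch holds 2 pairs of enzymes, in which a phosphate acetyltransferase (PAT) makes acetyl phosphate from acetyl-CoA and an acetate kinase (ACK) turns it into acetate and ATP. PAT2 and ACK1 have been placed in the chloroplast and PAT1 and ACK2 in the mitochondrion. The chloroplast pair followed the hydrogenase genes in time. PAT2 (Cre09.g396650) stood at 5.04 FPKM in exposed and 5.73 FPKM in control cells at 12 h, and at 1.68 FPKM in exposed and 1.63 FPKM in control cells at 2 h. ACK1 (Cre09.g396700) stood at 0.906 FPKM in exposed and 1.36 FPKM in control cells at 12 h, and at 0.248 FPKM in exposed and 0.120 FPKM in control cells at 2 h. Both 12 h libraries lay above both 2 h libraries in each gene on the deposited scale, and the time ratios of both genes were above 0 in both conditions with equal sums as well. The log2 ratio of 12 h over 2 h was 1.17 with AgNPs and 1.36 in the controls for PAT2, and 0.61 with AgNPs and 1.07 in the controls for ACK1. The log2 ratio of AgNPs over control was -0.16 at 12 h and 0.03 at 2 h for PAT2, and -0.31 and 0.16 for ACK1. With equal sums these ratios were -0.58 and -0.89 for PAT2 and -0.51 and -0.06 for ACK1. The added 1 shrinks the ratios of ACK1, whose values were low.

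The mitochondrial pair had another order. PAT1 (Cre17.g699000, chromosome 17, 441728 to 453059) stood at 3.43 FPKM with AgNPs against 3.99 in the control at 12 h, and at 2.69 with AgNPs against 3.70 in the control at 2 h. ACK2 (Cre17.g709850, chromosome 17, 1839904 to 1846335) stood at 4.45 with AgNPs against 2.89 in the control at 12 h, and at 4.47 with AgNPs against 1.85 in the control at 2 h. ACK2 as deposited was thus higher in both AgNP libraries than in both controls, with log2 ratios of 0.49 at 12 h and 0.94 at 2 h, and PAT1 was lower at both times, at -0.17 and -0.35. Under equal FPKM sums the ratios of ACK2 were 0.06 at 12 h and -0.06 at 2 h. Within a library the PAT2 level was 1.47 times that of PAT1 in exposed and 1.44 times in control cells at 12 h, and 0.624 times in exposed and 0.441 times in control cells at 2 h.

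ACK1, PAT2 and HYDA2 lie next to each other on chromosome 9. ACK1 ends at 1728328, PAT2 runs from 1728553 to 1739846, and HYDA2 starts at 1740957, which leaves 224 and 1110 bp between them. The tables list Cre09.g396694 on the same locus as PAT2, at 0 FPKM in all 4 libraries. As deposited, the values of all 3 genes were higher in both 12 h libraries than in both 2 h libraries and lowest in the 2 h control. With equal sums each was still higher at 12 h than at 2 h within a condition. The log2 ratio of AgNPs over control at 2 h was then -0.89 for PAT2. For HYDA2 and ACK1 it was near 0, at -0.01 and -0.06. The next genes outside the group did not share this order. Cre09.g396750, beside ACK1, was listed at 0 in 3 libraries and 0.0402 FPKM in the 12 h control, and Cre09.g396586, beside HYDA2, did not exceed 0.105 FPKM. The genes after these were expressed: Cre09.g396800 stood at 6.73 with AgNPs against 4.18 in the control at 12 h and 6.87 against 3.05 at 2 h, and Cre09.g396550 at 2.81 against 3.40 and 4.17 against 5.12.

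Ratios between genes within a library do not depend on how the libraries were scaled to each other; these pairs were chosen after the values were seen. HYDA1 over ADH1 was 1.42 in exposed and 1.02 in control cells at 12 h, and 1.21 in exposed and 0.305 in control cells at 2 h. In the 2 h control ADH1 was thus the higher of the pair, and in the other libraries HYDA1 was level with it or higher. Against PDC3, HYDA1 stood at 0.765 and 0.912 in the AgNP and control libraries at 12 h, and at 0.786 and 0.353 in those at 2 h. ADH1 over PDC3 was 0.539 with AgNPs and 0.892 in the control at 12 h, and 0.650 with AgNPs and 1.16 in the control at 2 h. PFL1 over PDC3 was 1.65 with AgNPs and 2.37 in the control at 12 h, and 1.41 with AgNPs and 1.78 in the control at 2 h. Relative to PDC3, both ADH1 and PFL1 were thus lower with AgNPs at each time.

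**Figure D4:**
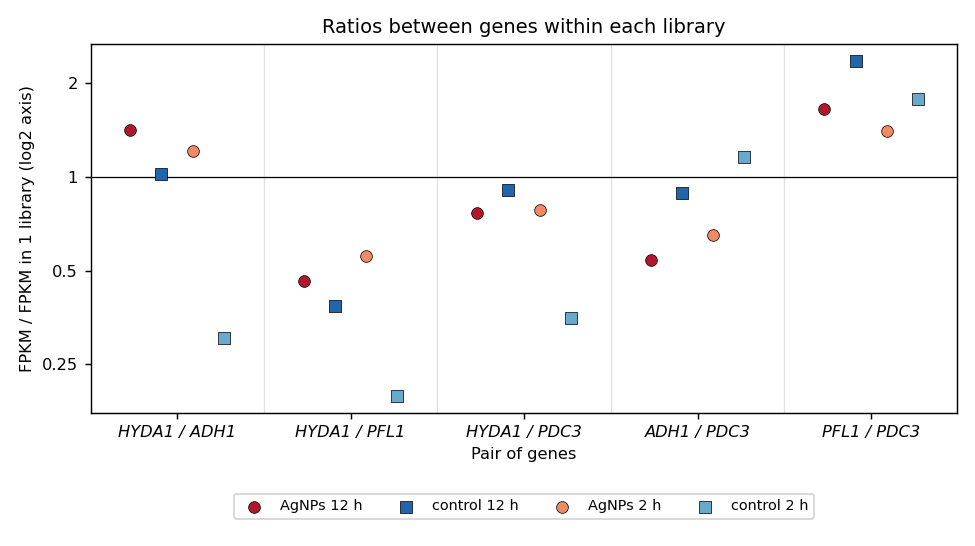
FPKM of a gene divided by that of a second gene in the same library (log2 axis), for 5 pairs, with 1 point per library, circles for AgNPs and squares for controls. HYDA1 over ADH1 is 0.305 in the 2 h control and between 1.02 and 1.42 in the other 3 libraries, and ADH1 over PDC3 is lower in the AgNP library at each time.

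Other genes of the pathway were taken by symbol from lists of known function. Of 15 symbols for hydrogenase assembly and electron supply, 8 were present and 6 were tested. HYDEF, which encodes a factor that assembles the active site of the hydrogenase, was below the mean of 5 FPKM, at 2.58 FPKM in exposed and 2.99 FPKM in control cells at 12 h, and at 0.660 FPKM in exposed and 0.439 FPKM in control cells at 2 h. On the deposited scale its libraries stood in the order of those of HYDA1. The ferredoxin gene FDX5, known for high levels without oxygen and without copper, had another pattern: 251.1 FPKM with AgNPs against 16.8 in the control at 12 h, and 1199 with AgNPs against 11.0 in the control at 2 h. Its log2 ratio of 12 h over 2 h was -2.25 with AgNPs and 0.56 in the controls (-0.58 with equal sums), whereas that of HYDA1 was above 0 in both.

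In this list 2 of 6 tested genes were at least 2-fold higher with AgNPs at 12 h (FDX5 and FDX4) and 2 at 2 h (FDX5 and PETF), with 0 lower at either time, where 16.7% of all tested genes were higher at 12 h and 22.0% at 2 h. The median log2 ratio was 0.88 at 12 h and 0.64 at 2 h, against 0.44 and 0.48 for tested genes. FDX4, a ferredoxin gene, stood at 56.2 with AgNPs and 18.1 in the control at 12 h, and at 110.0 and 65.9 at 2 h. PETF, which encodes the ferredoxin of photosynthesis, stood at 6549 with AgNPs and 3310 in the control at 12 h, and at 4730 and 2099 at 2 h. With equal sums the 2 h ratios of FDX4 and PETF were -0.60 and -0.17. With centred ratios 2 genes were higher at 12 h (FDX5 and FDX4) and 1 at 2 h (FDX5). By time 3 of 6 tested genes were at least 2-fold lower at 12 h in each condition. The share of all tested genes was 8.07% with AgNPs and 7.80% in the controls. The ferredoxin genes FDX3 and FDX6 were lower in both conditions, FDX5 with AgNPs alone (-2.25) and FDX4 in the controls alone (-1.81). FDX3 stood at 3.38 with AgNPs and 1.56 in the control at 12 h, and at 21.9 and 16.0 at 2 h. FDX6 stood at 4.00 and 2.12 at 12 h, and at 18.5 and 12.4 at 2 h. FDX3 and FDX6 passed the filter only through their 2 h values, so the counts by time are not independent of the filter. FDX2 ran the other way, at 5.42 and 3.47 at 12 h against 0.181 and 0.358 at 2 h, with AgNPs given before the control. FNR1, which encodes ferredoxin-NADP reductase, differed by less than 2-fold in all 4 comparisons on the deposited scale, while with equal sums it was lower by more than 2-fold for AgNPs at 2 h (-1.04) and for 12 h over 2 h with AgNPs (-1.09) and in the controls (-1.61) (203 and 199.9 at 12 h, 326 and 264 at 2 h).

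Of 12 symbols for hybrid cluster proteins and nitrogen oxides, 9 were present and only THB1 and AOX1 were tested. Like HCP3, the genes HCP4 and HCP2 stood higher at 12 h, also with equal sums. HCP4 was at 5.59 FPKM with AgNPs and 6.17 in the control at 12 h, and at 0.477 and 0.241 at 2 h. HCP2 was at 2.27 with AgNPs and 3.99 in the control at 12 h, and at 0.340 and 0.592 at 2 h. HCP1 was listed at 0.404 and 0.215 at 12 h and at 0 in both 2 h libraries. HCP2 starts 5 bp after HCP3 ends. As deposited, HCP3 was higher with AgNPs than in the control at both times and HCP2 lower at both times. The authors' counting may have divided reads between these related genes, so their separate values are uncertain. AOX1, the gene of an alternative oxidase of mitochondria, had a log2 ratio of 12 h over 2 h of 1.34 with AgNPs and 1.02 in the controls, or -0.05 in the controls with equal sums (8.56 and 10.9 FPKM at 12 h, 2.78 and 4.87 at 2 h). THB1, a truncated hemoglobin gene, stood at 19.3 with AgNPs and 2.36 in the control at 12 h, and at 8.98 and 1.11 at 2 h. AOX1 passed the filter only through its 12 h values and THB1 only through its AgNP values. That they stood high there is therefore not independent of the filter. NII1, the nitrite reductase gene, did not exceed 1.74 FPKM, AOX2 did not exceed 0.888, and NIT1, the nitrate reductase gene, and THB2 were listed at 0 throughout.

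**Figure D5:**
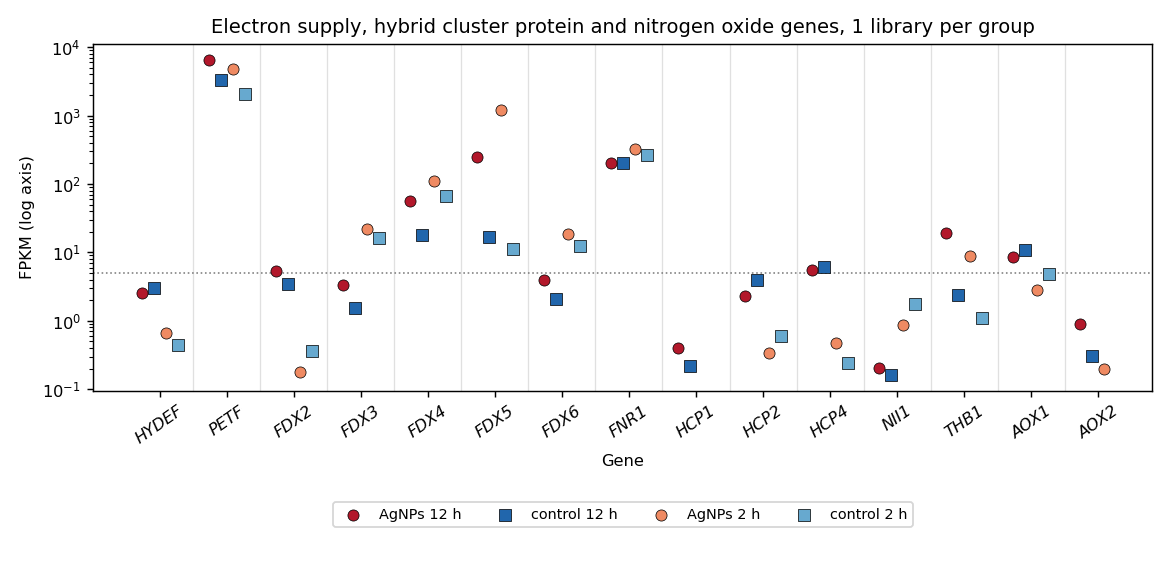
FPKM (log axis) of the genes present from the lists of hydrogenase assembly and electron supply and of hybrid cluster proteins and nitrogen oxides, with circles for AgNPs and squares for controls. Values listed at 0 are not drawn, NIT1 and THB2 are left out as they were at 0 in every library, and the dotted line marks 5 FPKM. On the deposited scale HYDEF, HCP1, HCP2, HCP4, FDX2, AOX1 and AOX2 are higher in both 12 h libraries than in both 2 h libraries. FDX3, FDX4, FDX5, FDX6 and FNR1 stand highest in the 2 h AgNP library.

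Of 34 symbols for pyruvate, alcohol, lactate and formate other than the members, 17 were present and 10 tested. With AgNPs 0 differed 2-fold or more at 12 h, and at 2 h 1 was higher and 0 lower: PDC2, at 196 FPKM with AgNPs and 97.6 in the control, a log2 ratio of 1.00 that was -0.34 with equal sums. The shares of all tested genes past 2-fold were 16.7% upward and 0.459% downward at 12 h, and 22.0% upward and 1.62% downward at 2 h, so that counts of 0 and 1 in 10 genes are not read as a result. With centred ratios 0 were higher and 1 lower at each time. The list medians were -0.11 at 12 h and -0.02 at 2 h. The pyruvate kinase genes PYK1 and PYK5 stood lower at 12 h than at 2 h in both conditions. PYK1 was at 9.24 and 23.6 FPKM at 12 h and 2 h with AgNPs and at 10.2 and 26.6 in the controls, and PYK5 at 4.01 and 13.5 with AgNPs and at 5.90 and 22.2 in the controls. By time 5 of 10 genes were lower with AgNPs, against 8.07% of tested genes, and 2 in the controls, against 7.80%. In both conditions 0 were higher, with list medians of -0.81 with AgNPs and -0.41 in the controls. The genes counted as lower include PYK5 and, with AgNPs, MME6. PYK5 and MME6 passed the filter only through their 2 h values, so these counts are not independent of the filter. FDH1, below the mean of 5 FPKM, ran the other way in time, at 7.01 with AgNPs and 7.06 in the control at 12 h and at 1.31 and 1.01 at 2 h.

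For acetate activation and pyruvate dehydrogenase, 7 of 12 symbols were present and 6 tested. With AgNPs 0 of the 6 differed 2-fold or more in either direction at 12 h or at 2 h, with medians of -0.02 at 12 h and -0.04 at 2 h, and with centred ratios 1 was lower at each time. Among 6 genes a count of 0 is near the background of 16.7% upward and 0.459% downward at 12 h, and 22.0% upward and 1.62% downward at 2 h. ACS3, an acetyl-CoA synthetase gene, stood at 134 with AgNPs and 221 in the control at 12 h, and at 204 and 297 at 2 h. PDH2, a pyruvate dehydrogenase gene, stood at 117 with AgNPs and 86.1 in the control at 12 h, and at 183 and 121 at 2 h. By time 1 of 6 was lower in each condition (8.07% of tested genes with AgNPs and 7.80% in the controls), DLA2, with a ratio of -1.20 with AgNPs and -1.29 in the controls.

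The list for copper deficiency and oxygen lack through CRR1 held 6 genes, the regulator CRR1 itself among them, and all were present and tested. Its genes were not sorted by direction of response, so its counts and medians do not stand for the targets of CRR1. With AgNPs 2 were at least 2-fold higher at 12 h (CYC6 and FDX5) and 3 at 2 h (CYC6, FDX5 and CRD1), with 0 lower and medians of -0.11 and 1.01, where 16.7% and 22.0% of tested genes were higher. With centred ratios 2 were also lower at each time, CPX1 and CRR1 at 12 h and CTH1 and CRR1 at 2 h. CYC6, the gene of cytochrome c6, stood at 380 FPKM with AgNPs against 0.236 in the control at 12 h, and at 339 with AgNPs at 2 h, where it was listed at 0 in the control. CPX1, a coproporphyrinogen oxidase gene, stood at 3.23 with AgNPs and 5.41 in the control at 12 h, and at 76.4 and 55.8 at 2 h. By time 4 of 6 were lower with AgNPs (8.07% of tested genes) and 2 in the controls (7.80%), with 0 higher. CYC6 passed the filter only through its AgNP values and CPX1 through its 2 h values, so their counts are not independent of the filter. HYDA1 had 12 h above 2 h in both conditions. The ratio of 12 h over 2 h was 0.16 with AgNPs (-0.24 with equal sums) and 0.31 in the controls for CYC6. CPX1, CRD1, CTH1 and CRR1 had ratios from -4.19 to -0.64 with AgNPs and from -3.15 to -0.81 in the controls.

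Likeness of profile was measured as the Euclidean distance between log2(FPKM + 1) values over the 4 libraries, each gene centred on its own mean, against 1175 other tested genes with a symbol. Nearest to HYDA1 were MOT6 at 0.22, IDH1 at 0.26 and TPT1 at 0.31. For HCP3 they were RBCS2 at 0.26, RBL3 at 0.29 and LCI36 at 0.30, and for PFL1 NGS1 at 0.18, TUB2 at 0.25 and TAL1 at 0.30. ADH1 had ACA1 at 0.20, EIF6 at 0.23 and MFT10 at 0.29 nearest, and PDC3 had SHMT3 at 0.06, MRS3 at 0.18 and UPM1 at 0.23. Among the members themselves the shortest distances were 0.24 for PDC3 and PAT1, 0.29 for HYDA2 and ACK1, and 0.36 for HYDA1 and ACK1, where low values shorten distances because of the added 1. With 4 libraries such likeness describes these samples alone.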

How the data were processed

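Trizol was used for RNA extraction and an Illumina kit for the mRNA libraries, per the labels' protocols. The deposited values are FPKM per gene, computed by the authors, per the file headers. The submitters' processing notes name Cuffdiff. The sources used here give no aligner, genome build, filter or scaling between libraries. Identifiers end in v5.5. Locus starts count from 0: adding 1 made 17558 of 17741 starts equal to those in a RefSeq table (assembly Chlamydomonas_reinhardtii_v5.5), which matched 17738 identifiers, and printed coordinates are 1-based. Symbols come from the deposited tables.

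Groups follow the sample titles (CK is the control). With 1 library per group no test was run, and a fit of exposure over both times was left out. Log2 ratios of FPKM + 1 were taken between libraries. Genes averaging 5 FPKM or more entered the background, and a difference of 2-fold was counted. The members and gene lists were chosen with earlier results of these data known. Named genes are all members, then genes of 5 lists by symbol, then the 3 nearest profiles of each tested member. The code was tested on simulated data. Alternatives to the pseudocount were 0.1 and 5, and those to the filter none and a mean of 20. Libraries were also scaled by median ratio over tested genes, by upper quartile, to equal sums or by centring on the median tested gene. A lowess trend on gene span was removed (fraction 0.5), and thresholds were set at 1.5-fold and 4-fold. The software was Python 3.11.15 with numpy 2.4.6 and pandas 2.3.3, statsmodels 0.14.6 for the trend and matplotlib 3.10.9 for figures.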

Additional observations from a re-analysis of the deposited data

How the results depend on the processing

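No paired analysis by replicate was made, since each group holds 1 library with no replicate number, and no replicate could be left out. A fit of exposure with time as a term, which leaves 1 residual degree of freedom, was not run. Counts of members at least 2-fold apart rest on 5 tested genes. Of 110 counts under alternatives, 70 stayed within 1.5 times the reported count and 40 did not. Most of the 70 were reported counts of 0 that stayed at 0. Where the reported count was above 0, most alternatives moved it beyond that limit. For AgNPs at 2 h, with 1 member higher and 1 lower, the higher count was 0 under a pseudocount of 5, a mean of at least 20, median ratio, upper quartile, centred, equal-sum and span-corrected ratios and the 4-fold threshold, and 2 at 1.5-fold. The lower count was 0 under a pseudocount of 5, a mean of at least 20 and the 4-fold threshold, 2 under median ratio, upper quartile and centred ratios and at 1.5-fold, and 3 under equal sums. For AgNPs at 12 h, with 0 and 0, the lower count was 1 under median ratio and centred ratios and at 1.5-fold, and 2 under upper quartile scaling and equal sums. For 12 h over 2 h with AgNPs, with 1 higher, the count was 0 under a pseudocount of 5, a mean of at least 20, all 4 scalings and the 4-fold threshold. It was 2 with no filter (HCP3 and PAT2), 2 with the span trend removed (HCP3 and PFL1, PFL1 on its shared locus), and 3 at 1.5-fold. In the controls, with 2 higher, it was 5 with no filter (HYDA2, PAT2 and ACK1 added), 3 with the span trend removed (PFL1 added), 1 under a pseudocount of 5 and 0 under a mean of at least 20, equal sums and the 4-fold threshold, and 2 members were lower under equal sums (ADH1 and PDC3). The AgNP ratio at 12 h minus that at 2 h, with 0 and 0, had 3 members higher under equal sums and 2 lower at 1.5-fold. The filter and thresholds act by their own construction; the cause of the other changes was not tested. No member at least 2-fold apart turned its sign under any of these settings. The span correction used the locus shared by PFL1 and its neighbour, so its PFL1 values (0.18 at 12 h and 0.07 at 2 h for AgNPs over control) and the counts that rest on them are not usable. The files hold no fragment counts, so the low values of HYDA2 and ACK1 carry no counting interval.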

Other observations

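Values that belong to no comparison above were chosen after they were seen. HYD3 (Cre03.g200550, chromosome 3, 8150223 to 8154635), which lies on the chromosome of HYDA1, had 4.54 FPKM in exposed and 3.67 FPKM in control cells at 12 h, and 3.24 FPKM in exposed and 2.01 FPKM in control cells at 2 h. Beside HCP2 and HCP3 on chromosome 9, the next genes on the HCP2 side were also higher in both 12 h libraries than in both 2 h libraries. Cre09.g393580 stood at 2.70 with AgNPs and 2.61 in the control at 12 h, and at 0.924 and 0.884 at 2 h. Cre09.g393617 stood at 0.933 and 1.23 at 12 h, and at 0.378 and 0.518 at 2 h. Cre17.g709876, the gene after ACK2, was higher with AgNPs at both times like ACK2, at 13.8 with AgNPs and 7.64 in the control at 12 h, and at 6.82 and 2.35 at 2 h.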
